A study of Mus musculus with 5 samples.

Results

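The 10 genes described here are known targets or feedback regulators of the Wnt pathway and were followed in single-cell transcriptomes of differentiating mouse epiblast stem cells (EpiSCs, cultured from the post-implantation epiblast). The genes were *Axin2*, *Lef1*, *Sp5*, *Notum*, *Nkd1*, *Nkd2*, *Znrf3*, *Rnf43*, *Dkk1* and *Rspo3*, chosen by name, and all 10 were among the 32285 genes listed in the files. Each of the 10 was detected in every library, as were 17618 of the 32285 genes. All cultures received 1 µM of the Wnt agonist Chi and 8 ng/ml BMP4 for 3 days, and they differed in FGF treatment. Of the 5 cultures, 4 had FGF2 at 0, 0.75, 3 or 12 ng/ml, and the other had 30 nM of the FGF receptor inhibitor AZD4547 (FGFRi), with no FGF2 dose stated in its labels, so that a difference from 0 ng/ml cannot be assigned to the inhibitor alone.

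A single library was made per condition, so no condition had a replicate, no test between conditions was possible, and every interval below covers counting error only. The level of a gene was its number of unique molecular identifiers (UMIs) over all retained cells of a library, per 1000000 UMIs of these cells (CPM). The libraries held 1701 retained cells with FGFRi and 1696, 2725, 2125 and 2406 along the FGF2 doses, with 47824660 to 81538748 UMIs each and a median of 24408 to 29661.5 UMIs per cell. Of the retained barcodes, 7 occurred in more than 1 library. The EpiSC label describes the starting cells. After 3 days *Nanog* was at 0.46 to 2.03 CPM and *Pou5f1* at 1.74 to 11.3 CPM. The 6 epiblast markers, which include both, summed to 48.6 CPM with FGFRi and to 60.8, 80.4, 82.0 and 86.1 CPM along the doses. These sums rest on few genes. Only 2 of the 6 reached 10 CPM in the FGFRi or 0 ng/ml library, and 1 was at least 2-fold lower at 0 ng/ml. Likewise 2 reached it at 0 or 12 ng/ml, and 1 was at least 2-fold higher at 12 ng/ml. The FGFRi library stood apart: the 7 primitive streak and nascent mesoderm markers summed to 3.78 CPM there and to 61.2, 194, 429 and 467 CPM along the doses. The 6 mesenchyme and extraembryonic mesoderm markers ran the other way, from 4018 CPM with FGFRi to 1091, 335, 150.0 and 177 CPM. Fewer cells of a type and less RNA per cell cannot be told apart in these summed levels, and cells are therefore divided by marker genes further on.

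Canonical Wnt signaling acts by stabilizing β-catenin, which joins TCF and LEF factors on DNA and switches on target genes. Chi inhibits the kinase GSK3, which marks β-catenin for degradation, and so raises β-catenin downstream of the receptors. Many direct targets feed back on the pathway: AXIN2 is a scaffold of the complex that degrades β-catenin, NKD1 and NKD2 bind Dishevelled, ZNRF3 and RNF43 are membrane ubiquitin ligases that remove Frizzled receptors, NOTUM strips the lipid from Wnt proteins, and DKK1 blocks the LRP co-receptors. RSPO3, a secreted protein, does the opposite and protects the receptors from ZNRF3 and RNF43. In the gastrulating embryo, Wnt signaling is known for its part in forming the primitive streak, where the T-box gene *T* is expressed.

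To show regulatory sequence of the genes, promoters (250 bases before to 50 after a RefSeq start site) were taken from RefSeq on GRCm38.p6. A window was found for 7 of the 10 genes, *Axin2*, *Lef1*, *Sp5*, *Nkd1*, *Nkd2*, *Rnf43* and *Dkk1*. One form of the core sequence bound by TCF and LEF factors, CTTTGA or on the other strand TCAAAG, was searched in each. Other forms, such as CTTTGT, were not searched and are not marked. *Lef1* has 4 windows and *Rnf43* has 2, and the window nearest the GENCODE start of the gene was taken. The RefSeq start equals the GENCODE start for *Axin2*, *Sp5* and *Nkd2*. It lies 148 bases from the GENCODE start for *Lef1*, 169 for *Dkk1*, 365 for *Rnf43* and 6279 for *Nkd1*. The whole windows of *Rnf43* and *Nkd1* lie inside their genes. Of the 7 windows taken, those of *Sp5* and *Dkk1* held matches, 2 each. Of the windows not taken, 1 of *Lef1* held one too, and of all 32851 windows 5257 did (16%). The *Sp5* and *Dkk1* sequences are shown because they are the windows taken that held the form searched. The *Sp5* window is chr2:70474673-70474972 on the plus strand and the *Dkk1* window chr19:30549447-30549746 on the minus strand. Both are written 5′ to 3′ on the strand of the gene, and capitals mark the matches.
Sp5: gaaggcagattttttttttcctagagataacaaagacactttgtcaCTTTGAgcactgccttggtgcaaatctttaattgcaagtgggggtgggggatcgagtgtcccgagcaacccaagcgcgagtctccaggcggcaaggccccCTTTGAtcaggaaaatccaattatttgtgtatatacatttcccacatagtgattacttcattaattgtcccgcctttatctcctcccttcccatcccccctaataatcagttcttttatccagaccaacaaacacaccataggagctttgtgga
Dkk1: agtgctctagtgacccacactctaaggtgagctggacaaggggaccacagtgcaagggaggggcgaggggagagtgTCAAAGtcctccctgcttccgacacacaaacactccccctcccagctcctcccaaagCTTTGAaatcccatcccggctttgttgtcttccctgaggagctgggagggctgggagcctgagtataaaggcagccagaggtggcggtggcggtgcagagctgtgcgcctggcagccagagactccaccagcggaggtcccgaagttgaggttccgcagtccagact
The *Sp5* matches began 204 and 104 bases upstream of the start site and both read CTTTGA. The *Dkk1* matches began 174 bases upstream of the RefSeq start as TCAAAG and 117 bases upstream of it as CTTTGA. By the GENCODE start of *Dkk1* used for the gene positions below, the first began 5 bases upstream and the second 52 bases inside the gene. Such a match is a description of letters and not of binding.

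The genes lie on 7 chromosomes of GRCm38 by GENCODE vM21. *Axin2* (108920349 to 108950783), *Notum* (120653788 to 120661175), *Znrf3* (5276324 to 5444847) and *Rnf43* (87662722 to 87735539) are on chromosome 11. *Lef1* is at 131110471 to 131224356 of chromosome 3, *Sp5* at 70474923 to 70477729 of chromosome 2, and *Nkd1* at 88521354 to 88594884 of chromosome 8. *Nkd2* is at 73818534 to 73847631 of chromosome 13, *Dkk1* at 30545863 to 30549665 of chromosome 19, and *Rspo3* at 29452416 to 29535867 of chromosome 10. Of the annotated genes that overlap them on the same strand, *1110028F11Rik*, over *Rnf43*, was listed and was at 0.167 to 0.263 CPM.

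FGF dose separated the 10 genes into those that were higher along the series, those that were highest at intermediate doses, and 1 that was lowest at 0.75 ng/ml. The size rule used below asks for a 2-fold difference or more and for 10 CPM or more in the higher library, and is no test. From FGFRi to 0 ng/ml, *Sp5* and *Rspo3* were higher past this rule, 2 of the 10 genes, where 2.62% of all 8445 genes at that level were higher and 7.99% were past the rule in either direction. From 0 to 0.75 ng/ml, *Rspo3* was higher and *Dkk1* lower (0.308% of 8130 genes were higher and 1.41% lower, 1.72% together). None of the 10 passed the rule from 0.75 to 3 ng/ml (0.859% of genes) or from 3 to 12 ng/ml (0.0883%). Over the whole dose range from 0 to 12 ng/ml, *Lef1*, *Sp5* and *Rspo3* were higher and none was lower (1.87% of 8237 genes were higher and 5.91% passed in either direction). The median difference of log2(CPM + 1) over the 10 genes in these 5 comparisons was 0.20, 0.30, 0.31, 0.08 and 0.31, against 0.00, 0.00, 0.02, -0.00 and 0.01 over all genes at that level.

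**Figure D1:**
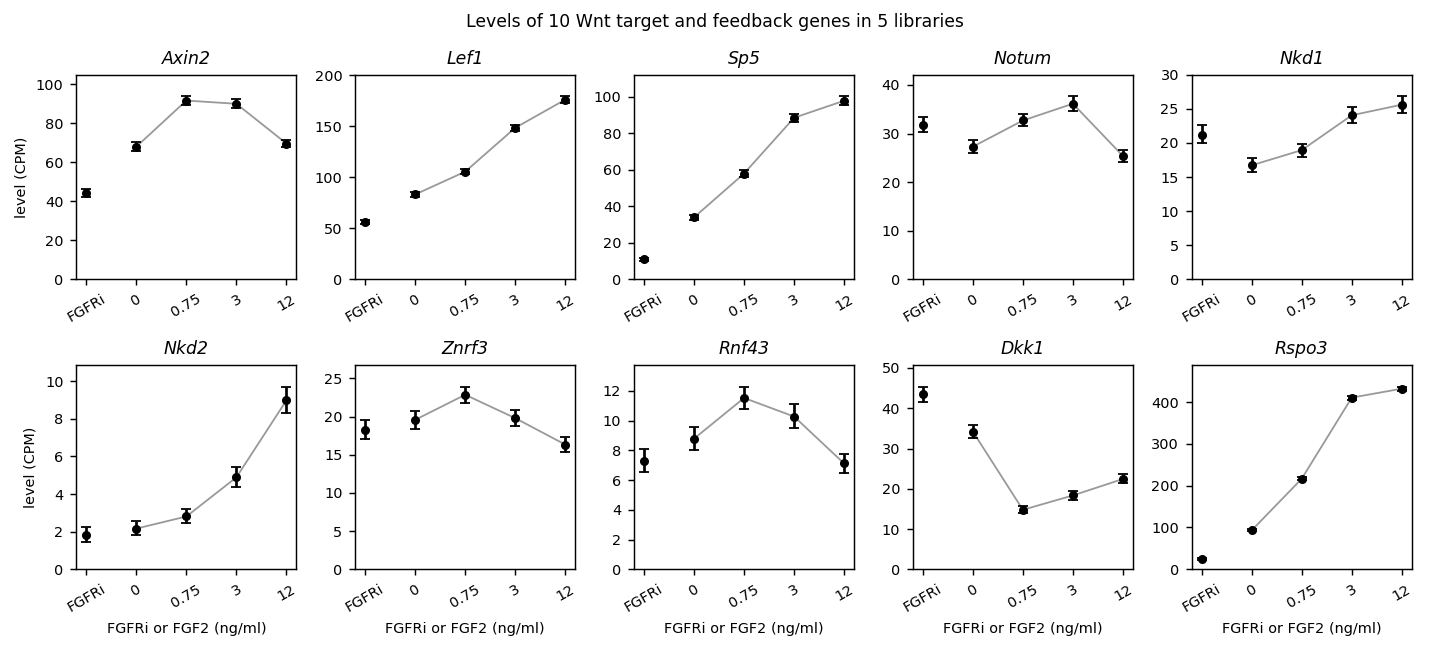
Level in CPM (vertical axis, from 0, scaled per gene) of each gene in the FGFRi library and at 4 FGF2 doses in ng/ml (horizontal axis), 1 point per library, with exact Poisson 95% intervals. *Rspo3*, *Sp5* and *Lef1* are highest at 12 ng/ml, *Axin2* is highest at 0.75 ng/ml (91.7 CPM), and *Dkk1* is lowest there (14.8 CPM).

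The 2 transcription factor genes were both higher at each step of the series. *Sp5*, a zinc finger factor that is a direct Wnt target, was at 10.9 CPM with FGFRi and at 33.8, 57.9, 88.5 and 97.9 CPM along the doses. Its ratio was 3.11 (95% interval 2.82 to 3.44) from FGFRi to 0 ng/ml and 2.89 (2.75 to 3.04) from 0 to 12 ng/ml. The steps between doses became smaller, at 1.71, 1.53 and 1.11. *Lef1*, which encodes a partner of β-catenin on DNA, was at 56.0 CPM with FGFRi and at 83.0, 105, 148 and 176 CPM along the doses. The *Lef1* ratio was 1.48 (1.41 to 1.55) from FGFRi to 0 ng/ml and 2.12 (2.05 to 2.19) from 0 to 12 ng/ml. No 2 neighboring libraries overlapped in their counting intervals for either gene. Each *Lef1* step between doses lay between 1.19 and 1.41.

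Among the intracellular feedback genes, *Axin2* followed the dose only at the low end. It was at 44.2 CPM with FGFRi and at 68.0, 91.7, 90.1 and 69.6 CPM along the doses, so that 0.75 and 3 ng/ml formed a plateau. The ratio from 0.75 to 3 ng/ml was 0.982 (0.949 to 1.02), whereas from 3 to 12 ng/ml *Axin2* was lower, at a ratio of 0.773 (0.744 to 0.803). At 12 ng/ml its level could not be told from that at 0 ng/ml, with a ratio of 1.02 (0.982 to 1.07). *Nkd1* was at 21.2 CPM with FGFRi and at 16.7, 18.9, 24.1 and 25.6 CPM along the doses. It was lowest without FGF2, and the ratio from 0 to 12 ng/ml was 1.53 (1.42 to 1.66). The 3 and 12 ng/ml libraries did not differ beyond counting error for *Nkd1* (ratio 1.06, 0.995 to 1.14). *Nkd2* was at 1.82, 2.17, 2.81, 4.89 and 8.99 CPM in the same order and thus under 10 CPM in all 5 libraries. Its ratio from 0 to 12 ng/ml was 4.15 (3.42 to 5.08), on 123 and 636 UMIs.

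The membrane ubiquitin ligase genes differed by less than 2-fold across the libraries. *Znrf3* was at 18.3, 19.6, 22.9, 19.8 and 16.3 CPM from FGFRi to 12 ng/ml, and *Rnf43* at 7.30, 8.78, 11.5, 10.3 and 7.12 CPM. Both were highest at 0.75 ng/ml and lowest at 12 ng/ml. The ratio from 0 to 12 ng/ml was 0.834 (0.768 to 0.907) for *Znrf3* and 0.811 (0.715 to 0.919) for *Rnf43*. The levels of *Rnf43* with FGFRi and at 12 ng/ml, and of *Znrf3* with FGFRi and at 0 ng/ml, did not differ beyond counting error.

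Among the secreted regulators, *Rspo3* was highest and *Notum* lowest at 12 ng/ml, and *Dkk1* was highest with FGFRi. *Rspo3* was at 24.9 CPM (23.5 to 26.3) with FGFRi and at 93, 216, 410.5 and 432 CPM (427 to 437) along the doses. The ratio was 3.74 (3.51 to 3.99) from FGFRi to 0 ng/ml, 2.33 (2.26 to 2.40) from 0 to 0.75 ng/ml, 1.90 (1.86 to 1.93) from 0.75 to 3 ng/ml and 1.05 (1.03 to 1.07) from 3 to 12 ng/ml. From 0 to 12 ng/ml, *Rspo3* was 4.64-fold higher (4.51 to 4.78), with nearly all of this reached at 3 ng/ml. Its highest level was 17.4 times its lowest, the largest such ratio of the 10 genes, with *Sp5* next and *Nkd2*, on few UMIs, at 4.94. Among the others this ratio lay between 1.40 (*Znrf3*) and 3.14 (*Lef1*). *Dkk1* was at 43.5 CPM with FGFRi and at 34.2, 14.8, 18.3 and 22.4 CPM along the doses. The step from 0 to 0.75 ng/ml had a ratio of 0.432 (0.402 to 0.464), and the level at 12 ng/ml was above that at 0.75 ng/ml but below that without FGF2, with a ratio of 0.656 (0.613 to 0.701) from 0 to 12 ng/ml. *Notum* was at 31.8, 27.3, 32.7, 36.1 and 25.4 CPM from FGFRi to 12 ng/ml. The largest *Notum* step was that from 3 to 12 ng/ml, at 0.702 (0.659 to 0.747). Thus *Axin2*, *Notum*, *Znrf3* and *Rnf43* were all lower at 12 than at 3 ng/ml, while *Lef1*, *Sp5*, *Nkd2*, *Dkk1* and *Rspo3* were higher.

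To compare the shares of cells with a transcript at equal depth, every cell was thinned to 5000 UMIs, which left out no cell. *Rspo3* was detected in 11.1% of cells (95% exact binomial interval 9.60 to 12.6) with FGFRi and in 19.6%, 39.4%, 63.9% and 70.1% (68.2 to 71.9) along the doses. The mean number of *Rspo3* UMIs in cells with any was 1.32 with FGFRi and 2.49, 2.76, 3.20 and 3.12 along the doses. Without thinning this mean was 2.67 with FGFRi and 8.65, 11.4, 15.5 and 14.7 along the doses. Detection itself depends on the level per cell, so the number of expressing cells and the amount in each cannot be separated by these values. *Sp5* was detected in 5.58% of cells with FGFRi and in 11.5%, 19.3%, 30.9% and 33.8% along the doses, with 1.15 to 1.41 UMIs in cells with any. *Lef1* was detected in 23.6%, 31.7%, 36.3%, 46.3% and 51.7% of cells in the same order, and *Axin2* in 19.4%, 26.1%, 33.9%, 34.7% and 27.5%. Without thinning, *Rspo3* was detected in 26.2%, 36.0%, 56.8%, 80.6% and 86.5% of cells and *Sp5* in 15.9%, 33.9%, 51.2%, 70.0% and 75.2%, at median depths of 24408 to 29661.5 UMIs. The unthinned shares of *Lef1* ran from 58.6% to 89.9% and those of *Axin2* from 57.4% to 83.6%, and both kept the order of the thinned shares.

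Free RNA can give UMIs even where a gene is silent, so the thinned shares were set beside the cell class with the lowest share. That class was picked from the same shares, so its share cannot lie above that of all cells. It need not be silent, and its share is no measure of free RNA. For *Rspo3* this was 2.43% in cells with *Cdh1* but no *Cdh2* UMIs with FGFRi (median 24053 UMIs), and 4.90% and 11.3% in the same class at 0 and 0.75 ng/ml. At 3 and 12 ng/ml it was 21.0% and 30.8% in cells without *T* UMIs. Among these, cells with *Cdh2* but no *Cdh1* UMIs were at 178 and 345 CPM of *Rspo3*. Those with *Cdh1* but no *Cdh2* UMIs were at 22.0 and 19.4 CPM. For *Sp5* the lowest class was at 1.62% with FGFRi and at 5.59%, 12.0%, 17.7% and 21.9% along the doses, and for *Lef1* at 9.40%, 17.4%, 22.3%, 21.4% and 18.8% in the same order. For *Axin2* it was at 11.7%, 21.3%, 30.1%, 30.9% and 25.8%, beside 26.1% to 34.7% of all cells along the doses. The medians of these classes lay between 24053 and 32311 UMIs. *Dkk1* was detected in 15.0% of cells with FGFRi and in 10.7%, 5.43%, 6.73% and 8.27% along the doses. The lowest class for *Dkk1* was at 12.3% with FGFRi and at 6.996%, 3.82%, 1.48% and 1.76% along the doses. The share of all cells was thus less far above that of the lowest class with FGFRi and at 0 and 0.75 ng/ml than at 3 and 12 ng/ml. *Dkk1* UMIs were concentrated in few cells, as the 5% of cells with the most *Dkk1* UMIs held 43.8% of them with FGFRi and 51.9% to 62.2% along the doses. The 5% of cells with the most *Axin2* UMIs held 17.4% to 25.1% of those, and the 5% with the most *Rspo3* UMIs held 17.1% to 48.9% of those, the latter 48.9% without FGF2 and 17.1% at 12 ng/ml. Such concentration was not particular to *Dkk1*. For *Sp5* the value was 60.2% with FGFRi and 25.0% at 12 ng/ml, and for *Nkd2*, on few UMIs, it was 60.8% to 100%.

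**Figure D2:**
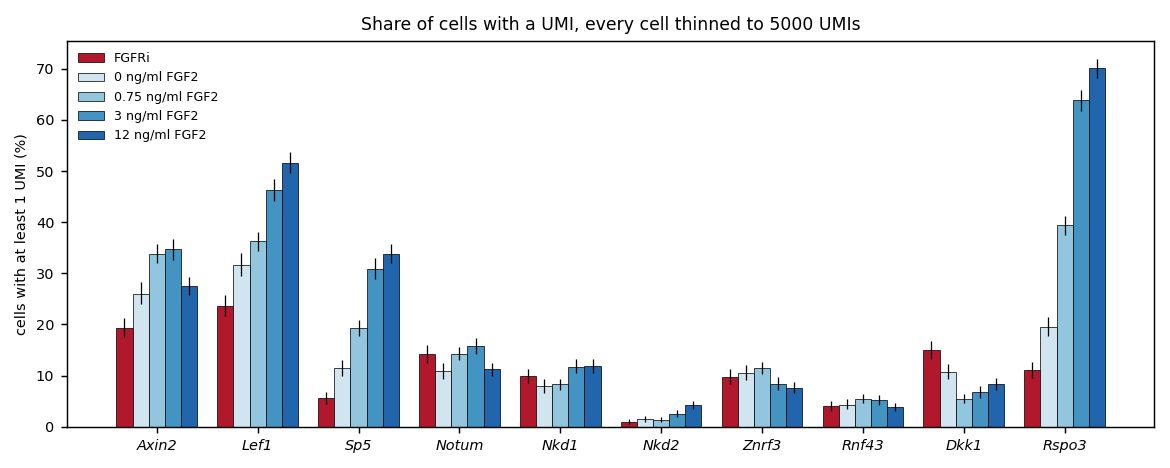
Share of cells with at least 1 UMI in percent (vertical axis) for each gene (horizontal axis) in the 5 libraries, with every cell thinned to 5000 UMIs and exact binomial 95% intervals. *Rspo3* spans 11.1% to 70.1% and *Lef1* 23.6% to 51.7%, whereas *Rnf43* and *Nkd2* stay under 6% in every library.

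Next, cells were divided within each library by the streak gene *T*. T-high cells had at least 1 *T* UMI per 10000 UMIs, T-negative cells had none, and T-low cells were the rest. T-high cells made up 9.02%, 25.9%, 52.5% and 56.9% of cells along the doses. With FGFRi there were 3 such cells (0.176%) and no comparison was made. T-high cells expressed more *Rspo3* in all 4 libraries. The level in T-high cells was 511, 547, 581 and 556 CPM along the doses and so nearly independent of dose, with a ratio from 0 to 12 ng/ml of 1.09 (1.05 to 1.14). In T-negative cells it was 15.8, 31.7, 70.9 and 134 CPM, a ratio of 8.50 (7.76 to 9.31). T-high cells therefore had 32.4-fold (29.7 to 35.3), 17.2-fold, 8.19-fold and 4.15-fold (3.95 to 4.37) the level of T-negative cells along the doses.

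*Sp5* was higher with dose in both classes. In T-negative cells it was at 25.9, 41.7, 58.9 and 76.0 CPM and in T-high cells at 69.1, 81.6, 107 and 112 CPM. The T-high level was above the T-negative level in each library, by 2.67-fold (2.35 to 3.01) at 0 ng/ml and by 1.48-fold (1.38 to 1.59) at 12 ng/ml. *Lef1* was also higher at 12 than at 0 ng/ml in both classes, with 66.5 and 122 CPM in T-negative and 145 and 177 CPM in T-high cells. Its class ratio was 2.19 at 0 and 1.44 at 12 ng/ml. In T-low cells, however, *Lef1* was at 125, 135, 177 and 210 CPM along the doses. This was above the T-high level at 3 and 12 ng/ml. *Axin2* was 1.70-fold (1.54 to 1.88) higher in T-high cells at 0 ng/ml, whereas at 12 ng/ml the classes did not differ beyond counting error (0.973, 0.902 to 1.05). Within T-high cells, *Axin2* was at 101, 100.3, 92.5 and 70.6 CPM along the doses, with a ratio of 0.7 (0.635 to 0.772) from 0 to 12 ng/ml. Within T-negative cells it was at 59.2, 83.8, 84.6 and 72.5 CPM, highest at the middle doses, with a ratio of 1.22 (1.13 to 1.32) from 0 to 12 ng/ml and of 0.857 (0.786 to 0.934) from 3 to 12 ng/ml. The like levels of *Axin2* at 0 and 12 ng/ml in whole libraries thus held opposite differences in these 2 classes as wholes. T-low cells went with the T-high cells, at 90.3 CPM at 0 and 65.7 CPM at 12 ng/ml. The T-negative cells did not share 1 direction when divided further, as given below.

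*Dkk1* changed sides between the classes. At 0 ng/ml it was at 39.1 CPM in T-negative and 17.5 CPM in T-high cells, a ratio of 0.449 (0.356 to 0.558). At 0.75 ng/ml the levels were 16.6 and 14.6 CPM. At 3 ng/ml they were 6.41 and 23.4 CPM, a ratio of 3.66 (2.97 to 4.55), and at 12 ng/ml 10.3 and 27.5 CPM, a ratio of 2.67 (2.22 to 3.25). Along the doses, the *Dkk1* ratio from 0 to 12 ng/ml was thus 0.263 (0.217 to 0.316) in T-negative cells and 1.57 (1.26 to 1.98) in T-high cells. The shares of cells thinned to 5000 UMIs differed less at 0 ng/ml. *Dkk1* was detected there in 9.15% (5.09 to 14.9) of T-high and 11.6% (9.94 to 13.5) of T-negative cells, with overlapping intervals. At 3 ng/ml these shares were 8.79% and 1.48%, and at 12 ng/ml 10.0% and 3.73%.

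By the size rule, 5 of the 10 genes differed between T-high and T-negative cells at 0 ng/ml (*Lef1*, *Sp5*, *Nkd1* and *Rspo3* higher, *Dkk1* lower), where 11.1% of all genes did. There were 3 in the 0.75 ng/ml library (*Lef1*, *Nkd1* and *Rspo3*, 6.7% of genes) and 2 each in the 3 and 12 ng/ml libraries (*Dkk1* and *Rspo3*, 5.4% and 5.39% of genes). When any cell with a *T* UMI was called T-high, *Sp5* and *Rspo3* passed without FGF2 (7.43% of genes) and *Rspo3* at 0.75 ng/ml (4.87% of genes), and the *Dkk1* ratio without FGF2 was 0.509, short of 2-fold. Markers of other cells moved with the classes. The 6 surface or extraembryonic ectoderm markers summed to 1949 to 2631 CPM in T-negative and to 270 to 366 CPM in T-high cells of the 4 libraries, and the 7 streak markers, which include *T*, to 7.34 to 94.2 and 405 to 682 CPM. Endoderm and mesenchyme markers were likewise lower in T-high cells, at 157 to 233 and 95.8 to 181 CPM, than in T-negative cells, at 527 to 651 and 263 to 1332 CPM. The endoderm list held *Sox17*, *Foxa2*, *Cldn6* and *Epcam*, and 2 of these 4 genes reached 10 CPM in each comparison of libraries. Their sum does not by itself identify endoderm cells. The part of other cell types in the differences between *T* classes was not tested. A cell without a *T* UMI can also be a shallow one. Among cells of at least 20000 UMIs alone, the *Rspo3* ratio was 33.5 at 0 and 4.79 at 12 ng/ml and the *Dkk1* ratio 0.417 and 2.86.

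**Figure D3:**
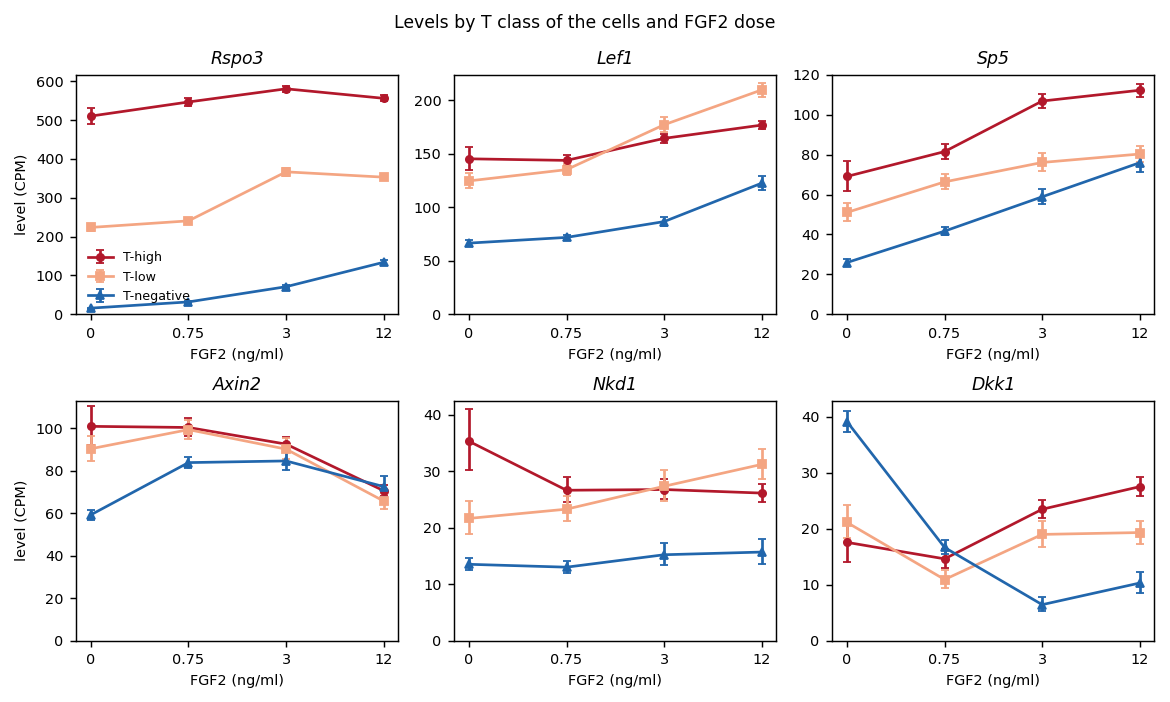
Level in CPM (vertical axis, from 0) of *Rspo3*, *Lef1*, *Sp5*, *Axin2*, *Nkd1* and *Dkk1* in T-high, T-low and T-negative cells. The horizontal axis gives 4 FGF2 doses in ng/ml, and intervals are exact Poisson 95% intervals. The *Rspo3* level in T-high cells stays between 511 and 581 CPM and the T-negative level climbs from 15.8 to 134 CPM. The T-high and T-negative lines of *Dkk1* cross.

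To ask how much of a dose difference went with the shares of the *T* classes, the level at the second dose was recomputed with the class shares of the first. These were shares of UMIs and not of cells. The reverse weighting, with levels of the first dose and class shares of the second, was not computed. It can give other ratios where a gene differs with dose by class, so the values below hold for this weighting only. From 0 to 0.75 ng/ml, the *Rspo3* ratio was 2.33 as observed and 1.19 with equal class shares. From 0 to 12 ng/ml it was 4.64 and 2.22. The *Sp5* ratio of 2.89 from 0 to 12 ng/ml was 2.36 with equal class shares, and that of *Lef1* was 1.71 in place of 2.12. *Nkd1* went from 1.53 to 1.15, while *Axin2* stayed at 1.05 against 1.02. The *Dkk1* ratio moved away from 1 under this weighting, from 0.66 to 0.39. *Rnf43* went from 0.811 to 0.974, while *Nkd2* (4.15 to 3.85), *Znrf3* (0.834 to 0.829) and *Notum* (0.930 to 0.914) moved little. With the class shares of 0 ng/ml held, *Rspo3*, *Nkd1* and *Rnf43* lost a larger part of the dose difference than *Sp5*. This order can differ under the reverse weighting. At 0 ng/ml *Rnf43* was at 8.87, 9.08 and 8.71 CPM in T-high, T-low and T-negative cells. Other class shares would hardly change that level.

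Epithelial cells of the epiblast switch from *Cdh1* (E-cadherin) to *Cdh2* (N-cadherin) as they leave the epithelium, and all 5 libraries held cells with UMIs of one and not of the other. Cdh2-only cells made up 36.7% of cells with FGFRi and 28.7%, 38.8%, 53.9% and 58.7% along the doses. Cdh1-only cells made up 36.3%, 43.3%, 38.7%, 20.8% and 14.1% in the same order. A cell without UMIs of a cadherin can also be a shallow one. At 0 ng/ml the median was 39233 UMIs in cells with both cadherins and 23069 in those with neither. It was 27733 in Cdh1-only and 29153 in Cdh2-only cells. The restriction to cells of at least 20000 UMIs was made for the *T* classes only. The genes fell into distinct patterns between these classes. *Lef1*, *Nkd1* and *Rspo3* were more than 2-fold higher in Cdh2-only cells of every library. *Lef1* was at 24.0, 40.5, 54.2, 54.4 and 55.8 CPM in Cdh1-only and 90.2, 143, 160.4, 198 and 229 CPM in Cdh2-only cells from FGFRi to 12 ng/ml. The *Lef1* ratio stayed between 2.96 and 4.10. *Nkd1* had ratios from 2.95 to 6.10, the highest with FGFRi, where it was at 6.34 CPM in Cdh1-only and 38.7 CPM in Cdh2-only cells. *Nkd2* was also higher in Cdh2-only cells, and past the rule only at 12 ng/ml with 0.899 and 13.7 CPM, on 9 and 549 UMIs.

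*Axin2*, *Sp5* and *Notum* shared another course, in which the 2 classes came together as the dose increased. The *Sp5* ratio of Cdh2-only over Cdh1-only cells was 3.97 (3.08 to 5.17) with FGFRi and 3.24, 1.31, 1.13 and 1.01 (0.940 to 1.09) along the doses. That of *Axin2* was 2.39 (2.14 to 2.68) with FGFRi and 1.96, 1.24, 1.09 and 0.993 (0.913 to 1.08). That of *Notum* was 4.63 (3.95 to 5.43) with FGFRi and 1.79, 1.46, 1.23 and 0.834 (0.729 to 0.956). For *Sp5* the Cdh1-only level was 14.7 CPM without FGF2 and 88.3 CPM at 12 ng/ml, a 6.01-fold difference (5.30 to 6.83), beside 1.88-fold (1.73 to 2.04) in Cdh2-only cells. For *Axin2* the Cdh1-only level was 1.45-fold higher at 12 than at 0 ng/ml and the Cdh2-only level 1.36-fold lower.

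*Rnf43* and *Znrf3* were lower in Cdh2-only cells of all 5 libraries. The *Rnf43* ratio was 0.342 to 0.503 and that of *Znrf3* 0.597 to 0.802. *Rnf43* was at 10.8, 11.9, 15.2, 16.9 and 13.2 CPM in Cdh1-only cells and at 4.46, 5.18, 7.66, 7.48 and 4.50 CPM in Cdh2-only cells from FGFRi to 12 ng/ml. *Rspo3*, whose product counters these ligases, was at 5.01, 15.1, 37.5, 99.8 and 136 CPM in Cdh1-only and at 53.0, 257, 403, 534 and 522 CPM in Cdh2-only cells. *Dkk1* again changed sides, with ratios of 1.5 (1.35 to 1.66) with FGFRi, 0.517 (0.450 to 0.593) without FGF2 and 0.815, 3.87 (3.10 to 4.90) and 5.44 (4.17 to 7.22) at the higher doses. *Dkk1* in Cdh1-only cells was at 35.9 CPM with FGFRi and at 35.5, 17.3, 6.58 and 5.69 CPM along the doses.

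Counted by the size rule, 7 of the 10 genes differed between the cadherin classes with FGFRi (6 higher in Cdh2-only cells and *Rnf43* lower), where 8.11% of all genes did. Along the doses the count was 5, 3, 5 and 6, beside 12.3%, 10.6%, 9.13% and 9.8% of all genes. The median difference of log2(CPM + 1) over the 10 genes was 1.69 with FGFRi and 1.29, 0.46, 0.87 and 0.97 along the doses, against -0.02 to 0.03 over all genes. Surface or extraembryonic ectoderm markers summed to 2241 to 4505 CPM in Cdh1-only and 82.1 to 595 CPM in Cdh2-only cells across the 5 libraries. The endoderm list (*Sox17*, *Foxa2*, *Cldn6* and *Epcam*) summed to 691 to 874 and 70.3 to 90.2 CPM, which does not by itself identify endoderm cells. No UMI of 2 of these 4 genes was found in Cdh2-only cells with FGFRi. Mesenchyme markers were at 2926 and 4250 CPM with FGFRi, but higher in Cdh1-only cells of every other library, with 973 and 398 CPM without FGF2. Streak markers were lower in Cdh1-only than in Cdh2-only cells of every library, with 15.2 and 149 CPM without FGF2 and 238 and 452 CPM at 12 ng/ml. The part of these other cell types was not tested.

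**Figure D4:**
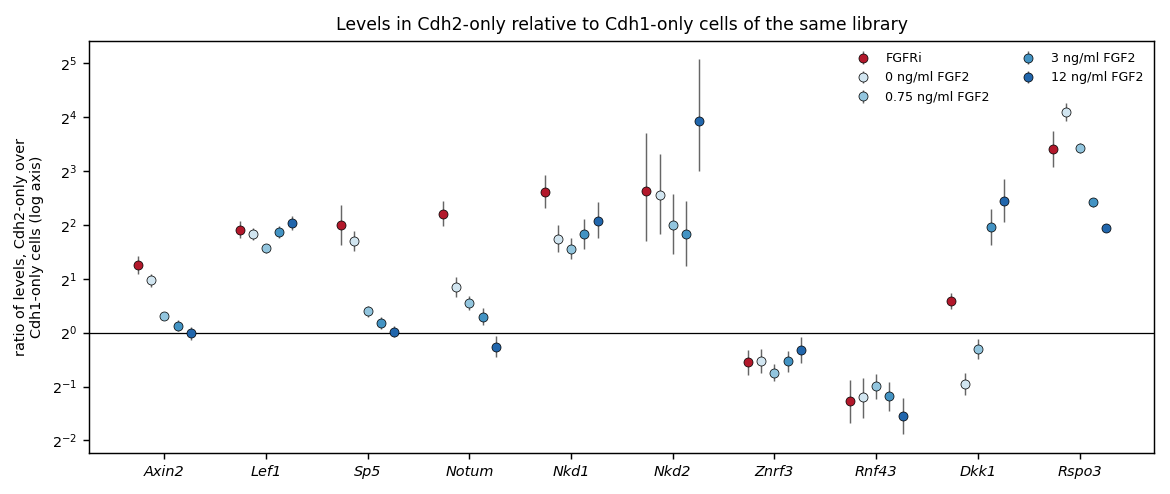
Ratio of levels in Cdh2-only over Cdh1-only cells of the same library (vertical log axis) for each gene (horizontal axis) in the 5 libraries, with exact 95% intervals and a line at 1. Ratios of *Axin2*, *Sp5* and *Notum* approach or cross 1 as the dose increases, *Lef1*, *Nkd1* and *Rspo3* stay above 2, and *Rnf43* and *Znrf3* stay below 1.

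When both divisions were combined, *Sp5* and *Rspo3* separated. Among T-high cells, *Sp5* was higher in Cdh1-only than in Cdh2-only cells, with 123 (107 to 140.3) against 66.5 CPM (62.2 to 71.1) at 0.75 ng/ml, 133 against 91.2 CPM at 3 ng/ml and 141 against 98.6 CPM at 12 ng/ml. These were 59, 95 and 103 Cdh1-only cells. *Rspo3* had the other order in the same cells, with 354 against 614 CPM, 339 against 646 CPM and 365 against 606 CPM. *Dkk1* was at 3.93, 7.53 and 6.65 CPM in the Cdh1-only and 19.3, 30.8 and 36.5 CPM in the Cdh2-only T-high cells. Among T-negative cells, *Rspo3* was higher at 12 than at 0 ng/ml in each cadherin class with at least 50 cells at both doses, and most so in Cdh2-only cells. Their *Rspo3* level was 48.7, 103, 178 and 345 CPM along the doses, on 221, 273, 165 and 156 cells. In T-negative Cdh1-only cells it was 7.42 (6.32 to 8.65), 12.3, 22.0 and 19.4 CPM (15.7 to 23.7), and in T-negative cells with UMIs of both cadherins 12.25, 21.5, 33.5 and 37.3 CPM. *Dkk1* in T-negative Cdh1-only cells was at 35.7 CPM with FGFRi and at 36.7, 20.4, 5.59 and 6.60 CPM along the doses. In T-negative Cdh2-only cells *Dkk1* was at 22.5, 6.31, 8.68 and 20.1 CPM along the doses, and in those with both cadherins at 55.3, 12.2, 6.12 and 2.78 CPM. *Axin2* in T-negative cells was lower at 12 than at 0 ng/ml in Cdh2-only cells (64.3 and 84.8 CPM). It was higher at 12 ng/ml in Cdh1-only cells (68.2 and 46.0 CPM) and in those with both (88.6 and 67.0 CPM).

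The 10 genes did not vary as 1 group. Over 40 groups of at least 50 cells (library by *T* class by cadherin class), Pearson's r of log2(CPM + 1) was 0.86 between *Lef1* and *Nkd1*, 0.80 between *Lef1* and *Rspo3*, 0.72 between *Rspo3* and *Sp5* and 0.70 between *Axin2* and *Sp5*. *Znrf3* and *Rnf43* had an r of 0.60 with each other, and *Znrf3* had -0.65 with *Nkd1*. *Dkk1* had -0.57 with *Sp5*. Groups of 1 library share its cells' handling and depth, so these values are descriptions and no test was made.

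**Figure D5:**
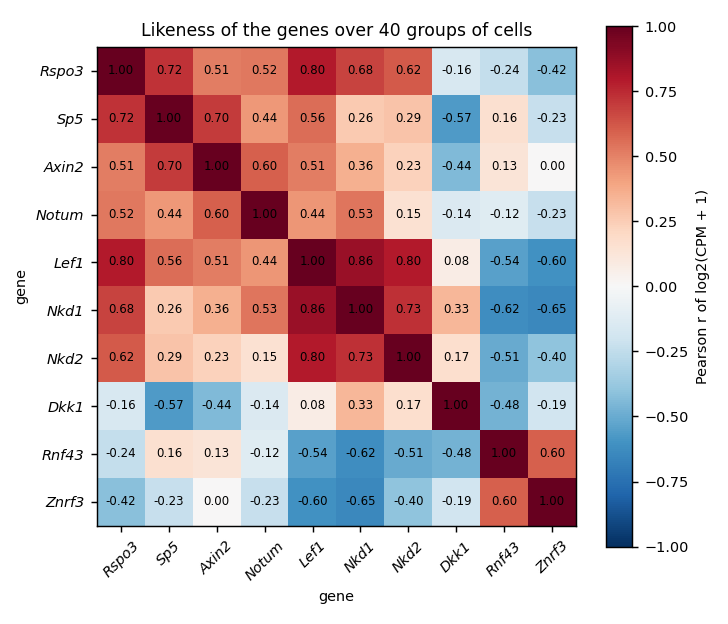
Pearson's r of log2(CPM + 1) between each pair of the 10 genes (both axes) over 40 groups of cells, as color. *Lef1*, *Nkd1*, *Nkd2* and *Rspo3* have positive values with each other, and *Dkk1* and *Sp5* have an r of -0.57.

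Genes outside the set with the most similar pattern over the 40 groups differed from member to member. For *Sp5* they were *Dusp4* (r = 0.94), *Spry4* (0.91) and *Wnt5b* (0.91). *Dusp4* and *Spry4* encode feedback inhibitors of FGF and ERK signaling. For *Axin2* they were *Tdrkh* (0.89) and the Hox genes *Hoxc9* (0.88) and *Hoxa9* (0.87). *Rspo3* was most like *Limch1* (0.95), *Chst7* (0.94) and *Cyp26a1* (0.94), the last an enzyme that degrades retinoic acid. *Lef1* was most like *Lpar1* (0.96), *Sms* (0.95) and *Ybx1* (0.93), and *Nkd1* most like *Gpc6* (0.90), *Jam3* (0.90) and *Dixdc1* (0.89). *Nkd2* was most like *Pcdh19* (0.90), *Frzb* (0.85) and *Naaa* (0.85), and *Rnf43* most like *Espn* (0.88), *Lad1* (0.85) and *Palm3* (0.85). The closest genes were *Dlk1*, *Nxn* and *Meis2* for *Dkk1* (0.80, 0.79 and 0.75), *Pan3*, *Lmx1b* and *Gjb5* for *Znrf3* (0.78, 0.77 and 0.76) and *Ndufs3*, *Lta4h* and *Lpar4* for *Notum* (0.62, 0.61 and 0.61). These lists depend on the groups used. With groups of at least 100 cells, none of the genes given for *Znrf3* or *Notum* was among their 3 closest.

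The other parts of the pathway were counted by the same rule. Only listed genes at 10 CPM or more in either library could pass, and shares of all genes are of genes at that level. Among 16 other Wnt target genes, 12 reached it from FGFRi to 0 ng/ml and 13 from 0 to 12 ng/ml. Of these 16 genes, 8 were higher and 1 lower at 0 ng/ml than with FGFRi, and 5 were higher and 2 lower at 12 than at 0 ng/ml. The median difference of log2(CPM + 1) over the 16 genes was 1.56 and 0.73, beside 0.00 and 0.01 over all genes, and 7.99% and 5.91% of all genes passed the rule. *T*, *Fgf8*, *Tbx6* and *Msgn1* also belong to the streak markers. The largest differences from FGFRi to 0 ng/ml were those of *T* (0.75 to 26.7 CPM), the caudal gene *Cdx2* (4.64 to 109 CPM) and *Fgf8* (2.43 to 24.5 CPM), and *Bambi* was lower (169 to 67.1 CPM). From 0 to 12 ng/ml they were *Tbx6* (5.86 to 49.0 CPM), *T* (26.7 to 208 CPM) and *Fgf8* (24.5 to 160.4 CPM), and *Ascl2* (24.9 to 4.0 CPM) and *Bambi* (67.1 to 31.0 CPM) were lower. Of 19 Wnt ligand genes, 7 reached 10 CPM from FGFRi to 0 ng/ml and 6 from 0 to 12 ng/ml. *Wnt3a* (1.23 to 11.4 CPM) and *Wnt5b* (13.1 to 54.5 CPM) were higher and *Wnt4* (134 to 31.7 CPM) and *Wnt6* (126 to 42.0 CPM) lower at 12 than at 0 ng/ml. *Wnt6* is also one of the surface or extraembryonic ectoderm markers. From FGFRi to 0 ng/ml, *Wnt5b* was 7.74-fold higher and *Wnt9a*, *Wnt10b* and *Wnt3* were 4.88-fold, 2.48-fold and 2.42-fold lower.

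Of 19 receptor and co-receptor genes, 11 reached 10 CPM from FGFRi to 0 ng/ml and 9 from 0 to 12 ng/ml. None passed the rule from 0 to 12 ng/ml, where 5.91% of all genes did. From FGFRi to 0 ng/ml (7.99% of all genes) *Fzd10* (8.26 to 36.5 CPM) and *Ror2* (6.46 to 13.3 CPM) were higher and *Ror1* (13.7 to 3.33 CPM) and *Fzd8* (15.3 to 5.07 CPM) lower. Of 18 other secreted modulators, 4 reached 10 CPM from FGFRi to 0 ng/ml and 3 from 0 to 12 ng/ml. *Sostdc1* (22.3 to 1.32 CPM) and *Dkk2*, a relative of *Dkk1* (45.4 to 8.77 CPM), were lower at 0 ng/ml than with FGFRi. *Frzb* (5.95 to 39.2 CPM) and *Sfrp1* (6.0 to 16.1 CPM), which encode secreted Frizzled-related Wnt antagonists, were higher at 12 than at 0 ng/ml. Of the 12 genes of β-catenin and its destruction complex, 10 reached 10 CPM in each of the 5 comparisons. None passed the rule in any of them, where 0.0883% to 7.99% of all genes did, and *Ctnnb1* itself was at 217 to 275 CPM. Of 10 TCF factor and nuclear cofactor genes, 9 reached 10 CPM in each comparison. Only *Bcl9l* passed the rule, at 35.2 CPM without FGF2 and 15.7 CPM at 12 ng/ml.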

How the data were processed

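Single-cell transcriptomes of 5 cultures, 1 library each, were re-analyzed. The authors aligned the reads to mm10 with Cell Ranger (5.0.1 in the matrix headers), and deposited raw UMI counts per gene and barcode, not normalized and before their filters on cells. Barcodes with under 2500 genes or over 10% mitochondrial UMIs were removed, following the study's methods, which retained 10653 of 15375 barcodes and 321559590 UMIs. Because 10x libraries tag the 3′ end, levels were compared only within a gene. Levels are given with exact Poisson, ratios with exact conditional and shares with exact binomial (Clopper-Pearson) 95% intervals, which all cover counting error only. Doublets were not called, and leaving out the 5% of cells with the most UMIs was tried instead. Classes needed at least 50 cells.

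The 10 genes and all lists were chosen with earlier results of these data known. Named were all 10 genes, up to 3 genes per pathway list and direction past the rule, and the 3 most similar genes each. *T*, *Cdh1*, *Cdh2*, *Nanog*, *Pou5f1*, *Ctnnb1* and the 4 genes of the endoderm list were named as markers. Sequences came from RefSeq (GRCm38.p6) and positions from GENCODE vM21. The steps were tested on simulated Poisson counts at the depths of the libraries, without variation between cells or cultures. In these, 99 or 100 of 100 genes changed 3-fold passed the rule in each comparison, and 0 of 100 changed 1.5-fold. This checks the calculation and not the spread between cultures. Python 3.11.15, NumPy 2.4.6, SciPy 1.17.1, pandas 2.3.3, Matplotlib 3.10.9, R 4.3.3 and edgeR 4.0.16 (TMM factors only) were used.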

Additional observations from a re-analysis of the deposited data

Results flagged for a closer look

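*Dkk1* was the one of the 10 genes whose level was higher in T-negative cells at one dose and higher in T-high cells at others, past 2-fold in both directions under the main division. The ratio of T-high over T-negative cells was 0.449 without FGF2, and 3.66 and 2.67 at 3 and 12 ng/ml. With T-high from 1 *T* UMI the ratio without FGF2 was 0.509 and no longer past 2-fold. The thinned shares of cells with *Dkk1* overlapped in their intervals between the classes without FGF2. Among Cdh2-only cells, T-high and T-negative levels were less than 2-fold apart at 0 ng/ml (15.6 and 22.5 CPM) and 12 ng/ml (36.5 and 20.1 CPM). At 3 ng/ml they were further apart (30.8 and 8.68 CPM). The difference between the doses was not tested, as each dose had 1 library. *Dkk1* UMIs were concentrated in few cells, and the 5% of cells with the most held 51.9%, 55.9% and 53.6% of them in these 3 libraries.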

How the results depend on the processing

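No paired analysis was possible because each condition had 1 library, and for the same reason no replicate could be left out. Under TMM factors, equal weight per cell, a limit of 5% mitochondrial UMIs, all deposited barcodes, removal of the deepest cells and thinning to 10000 UMIs, 272 of 300 ratios of single genes moved by less than their interval, 28 moved by more and 0 of the called ones changed direction. Uncalled ratios near 1 crossed it for *Nkd2* (0.912 to 1.20) and *Znrf3* (0.993 to 1.08) from FGFRi to 0 ng/ml and for *Axin2* (0.989 to 1.05) and *Notum* (0.913 to 1.02) from 0 to 12 ng/ml. The *Sp5* ratio from FGFRi to 0 ng/ml was 2.51 after thinning.

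Of 76 counts of genes past the rule, 66 stayed within 1.5 times. A minimum of 50 CPM gave 1 gene, *Rspo3*, from FGFRi to 0 (6.46% of all genes at that minimum) and from 0 to 0.75 ng/ml (1.51%). A ratio of 1.5 gave 2 from 0.75 to 3 ng/ml (3.26% of all genes), 5 from 0 to 12 ng/ml (13% of all genes), 6 each between *T* classes at 0.75 and 3 ng/ml (13.5% and 10.7%), and 8 and 5 between cadherin classes at 0 and 0.75 ng/ml (26.6% and 22.5%). T-high from 1 *T* UMI gave 2 at 0 (7.43%) and 1 at 0.75 ng/ml (4.87%), without *Dkk1*, *Lef1* and *Nkd1* at 0 ng/ml. The restriction to cells of at least 20000 UMIs was chosen after seeing the data. In groups of at least 100 cells, 12 of the 30 most similar genes recurred. Levels of *Nkd2* rest on as few as 87 UMIs in a library and on 9 UMIs in Cdh1-only cells at 12 ng/ml. It was at 0 CPM in T-negative cells with both cadherins at 12 ng/ml, a group used for its r values.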
